A study of Mus musculus with 6 samples.

Results

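Promoters of protein-coding genes made up 6045 of the 51775 ATAC-seq peaks in the deposited table, or 11.7%. ATAC-seq marks open chromatin by the sites where a transposase inserts sequencing adapters. A peak was taken as such a promoter where the deposited annotation placed it in the promoter-TSS class and the nearest transcript had a RefSeq identifier starting with NM_, the prefix for messenger RNAs. The peaks belonged to 5971 genes, of which 5900 had 1 such peak, 68 had 2 and 3 had more. They had a median width of 1323 bp against 899 bp for the other peaks, and 3631 of them were centred within 100 bp of the start site.

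The cells were natural killer (NK) cells sorted from the spleen of C57BL6 mice as CD3-CD5-NK1.1+NKp46+ cells. One group was wildtype and the other was Rroid deficient, Rroid being a locus that makes a long noncoding RNA near Id2. Each group had 3 libraries, and 50000 cells of each genotype went into transposition in triplicate. Neither the age of the mice nor the number of mice behind a group is given in the sources used here. The spread between libraries, on which every p-value rests, may therefore be technical. The wildtype libraries are numbered 1 to 3 and the Rroid-deficient libraries 4 to 6, after the column names.

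A promoter is the stretch of DNA at which the transcription machinery assembles. Many mammalian promoters lie in CpG islands, which keep open chromatin in most cell types, while promoters of tissue-restricted and developmental genes are often open in few cell types and held closed by repressive chromatin in the others. Id2 binds E proteins, the transcription factors that read E boxes such as CAGCTG and CAGGTG, and keeps them off DNA, and NK cells need it to develop and mature.

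Depth, as reads in peaks recovered from the deposited values, was 39847736 to 47939665 in the wildtype and 27572006 to 41167610 in the Rroid-deficient libraries. Libraries 4 and 6 were the shallowest, at 27572006 and 30762426 reads. The share of the deposited signal that fell in these promoters was 32.0%, 32.7% and 32.8% in the wildtype libraries and 31.7%, 32.5% and 32.0% in the Rroid-deficient ones, so the groups overlapped. Every promoter had at least 7.81 units of signal in each library, and none was left out of the test.

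The sequences below show the kind of DNA at the promoters on which the results turn. They are the 150 bases before the start site, 5′ to 3′ on the gene's strand, from RefSeq (GRCm38.p6). They belong to the largest fall and the largest rise in each of 3 equal sets of promoters cut by wildtype signal, among genes with 1 entry in the sequence table, and to Id2. The Hist1h2ad and Hoxa5 promoters were added after their values were seen, to stand for a group that fell and a group that rose. Capitals mark the GC box GGGCGG, the box named after its letters CCAAT, the TATA box with letters TATAAA, and the E box, searched as CAGCTG or as CAGGTG. Each was searched on both strands, so that CCGCCC is the GC box, ATTGG is the CCAAT box and TTTATA is the TATA box read from the other strand.
Kng2: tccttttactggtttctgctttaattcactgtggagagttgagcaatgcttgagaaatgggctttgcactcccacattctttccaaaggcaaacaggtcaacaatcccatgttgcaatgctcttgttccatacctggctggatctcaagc
Frem2: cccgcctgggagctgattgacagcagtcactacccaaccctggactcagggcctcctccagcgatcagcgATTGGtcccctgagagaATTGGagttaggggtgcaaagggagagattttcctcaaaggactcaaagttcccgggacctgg
Khdc1b: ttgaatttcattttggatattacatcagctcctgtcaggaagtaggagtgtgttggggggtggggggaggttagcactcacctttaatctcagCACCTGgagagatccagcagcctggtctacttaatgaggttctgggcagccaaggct
Vipr1: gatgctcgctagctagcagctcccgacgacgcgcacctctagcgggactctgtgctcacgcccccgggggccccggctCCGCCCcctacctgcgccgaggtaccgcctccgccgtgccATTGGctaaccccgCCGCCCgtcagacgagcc
Pxylp1: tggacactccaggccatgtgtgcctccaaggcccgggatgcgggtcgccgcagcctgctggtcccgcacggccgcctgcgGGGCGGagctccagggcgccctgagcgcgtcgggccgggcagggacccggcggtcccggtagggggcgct
Traf3: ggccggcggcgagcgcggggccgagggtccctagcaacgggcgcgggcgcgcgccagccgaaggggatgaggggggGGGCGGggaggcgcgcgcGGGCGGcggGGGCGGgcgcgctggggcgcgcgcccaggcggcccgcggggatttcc
Id2: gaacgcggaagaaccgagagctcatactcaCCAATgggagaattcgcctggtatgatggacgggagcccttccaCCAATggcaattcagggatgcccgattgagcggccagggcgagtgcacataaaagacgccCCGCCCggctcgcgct
Hist1h2ad: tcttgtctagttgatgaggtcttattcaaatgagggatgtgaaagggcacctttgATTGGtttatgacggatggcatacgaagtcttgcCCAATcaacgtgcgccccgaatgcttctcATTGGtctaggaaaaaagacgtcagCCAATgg
Hoxa5: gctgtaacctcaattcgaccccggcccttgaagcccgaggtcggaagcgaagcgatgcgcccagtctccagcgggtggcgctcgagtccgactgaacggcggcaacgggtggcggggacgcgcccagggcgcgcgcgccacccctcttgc

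Of these windows, the one at Traf3 held 3 GC boxes and had a GC content of 84% over its 300-base entry, the highest of the 9. The Id2 window, at chr12:25096093-25096242 of GRCm38.p6, held 2 CCAAT boxes starting 120 and 76 bases before the start site and a GC box starting 16 bases before it. The Hist1h2ad window held 4 CCAAT boxes. The Kng2 window held none of the boxes, and the Khdc1b window held 1 E box. A match is a match of letters in this window, and its part in any change was not tested.

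Across all promoters, 605 had more and 521 had less accessible chromatin in Rroid-deficient than in wildtype NK cells (limma, Benjamini-Hochberg adjusted p under 0.05 over all peaks). That was 10.0% and 8.62% of the promoters, beside 13.8% higher and 12.1% lower of all peaks. The median log2 fold change was -0.03 over promoters and -0.01 over all peaks. Changes of at least 2-fold were found at 115 promoters that rose and 13 that fell, or 1.90% and 0.22%, beside 5.1% and 1.91% of all peaks. The balance between rises and falls depended on the scaling of the libraries. With libraries scaled to their total reads in peaks, 844 promoters were higher and 380 lower, beside 15.9% and 9.55% of all peaks. With cyclic loess, which evens out differences that follow abundance, 846 were higher and 343 lower, beside 14.9% and 12.7% of all peaks.

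The promoters were then cut into 3 equal sets of 2015 by their mean wildtype signal. The signal is a normalized read count per peak. The low-signal set ran from 14.9 to 756.0 with a median of 240.5, the mid-signal set from 756.9 to 2418.2 with a median of 1472.2, and the high-signal set from 2419.1 to 19788.6 with a median of 3912.2.

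In the low-signal set, 476 promoters rose and 86 fell, which is 23.6% and 4.27%, and the median log2 fold change was 0.18. In the mid-signal set, 108 rose and 159 fell, which is 5.36% and 7.89%, with a median of -0.03. In the high-signal set, 21 rose and 276 fell, which is 1.04% and 13.7%, with a median of -0.11. Changes of at least 2-fold lay almost entirely in the low-signal set, with 114 of the 115 rises and 11 of the 13 falls. The called rises had a median log2 fold change of 0.74 in the low-signal set, 0.38 in the mid-signal and 0.30 in the high-signal set. The called falls had medians of -0.56, -0.37 and -0.27. The standard error of the log2 fold change had a median of 0.16, 0.10 and 0.08 in the same order, so smaller changes could be called where the signal was high.

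**Figure D1:**
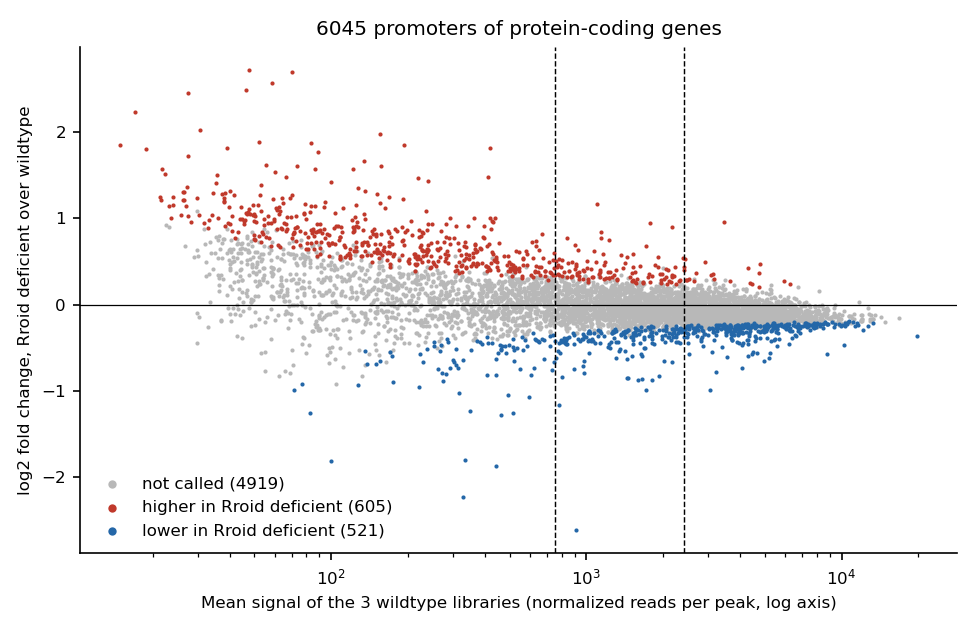
Log2 fold change of each of the 6045 promoters against its mean signal in the 3 wildtype libraries (normalized reads per peak, log axis). Dashed lines mark the cuts between the 3 sets. Of the promoters called higher, 476 of 605 lie left of the first line, and of those called lower, 276 of 521 lie right of the second.

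Wildtype values enter both the cut and the fold change, so a promoter that is low by chance in wildtype lands in the low-signal set and also appears to rise. The cut was therefore repeated on 1 wildtype library that was then left out of the contrast. With wildtype library 1, 2 or 3 used in this way, the median log2 fold change of the low-signal set was 0.19, 0.17 and 0.16, and that of the high-signal set was -0.14, -0.09 and -0.10. Cutting on the mean of all 6 libraries gave 0.16 and -0.11, with 454 rises and 106 falls in the low-signal set. None of these cuts bears on how a peak entered the consensus table. A region with little wildtype signal could have entered through the Rroid-deficient libraries, which would favour rises there, and this was not tested.

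The level of each library was also read as the median, over the promoters of a set, of its log2 difference from the wildtype mean. In the low-signal set these medians were 0.06, -0.02 and -0.05 in the wildtype libraries and 0.21, 0.19 and 0.15 in the Rroid-deficient ones. All 3 Rroid-deficient libraries lay above all 3 wildtype libraries there. In the mid-signal set they were -0.03, 0.03 and -0.01 against -0.10, 0.06 and -0.05, and the groups overlapped. In the high-signal set they were -0.06, 0.05 and 0.01 against -0.17, -0.04 and -0.12. Library 5, the deepest of its group, overlapped with the wildtype libraries there, and the 2 shallow libraries 4 and 6 lay below all of them.

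The counts moved with the scaling and with single libraries. Scaled to total reads, the low-signal set had 540 rises and 63 falls, the mid-signal set 232 and 120, and the high-signal set 72 and 197. Under cyclic loess the same sets had 494 and 96, 233 and 131, and 119 and 116. The excess of rises in the low-signal set was found under every scaling. The excess of falls in the mid-signal set turned into an excess of rises under both of these scalings. That in the high-signal set was gone under cyclic loess. Since cyclic loess evens out differences that follow abundance, it can take away such an excess by its design. Without the shallow libraries 4 and 6, which leaves 1 Rroid-deficient library assumed to vary like the others, the sets had 187 and 56, 76 and 31, and 18 and 20, and all promoters had 281 rises and 107 falls, beside 7.2% and 7.06% of all peaks. The part of depth in the falls of the high-signal set was not tested further.

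Leaving out 1 library changed the counts by more than 1.5 times in several cases. The falls of the high-signal set numbered 98 without wildtype library 2, 133 without wildtype library 3, 98 without library 4, 453 without library 5 and 65 without library 6. The rises of the low-signal set numbered 313 without wildtype library 2 and 296 without wildtype library 3, and lay between 326 and 530 without any other library. The falls of the low-signal set numbered 53, 57 and 51 without wildtype library 2, wildtype library 3 and library 6. In the mid-signal set, rises numbered 66, 65 and 61 without wildtype library 3, library 5 and library 6. Its falls numbered 82, 101, 89 and 64 without wildtype libraries 2 and 3 and libraries 4 and 6. The rises of the high-signal set numbered 12, 14 and 11 without wildtype library 3, library 5 and library 6. Over all promoters, rises numbered 374 and 398 without wildtype library 3 and library 6, and falls numbered 233, 291, 260 and 180 without wildtype libraries 2 and 3 and libraries 4 and 6.

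**Figure D2:**
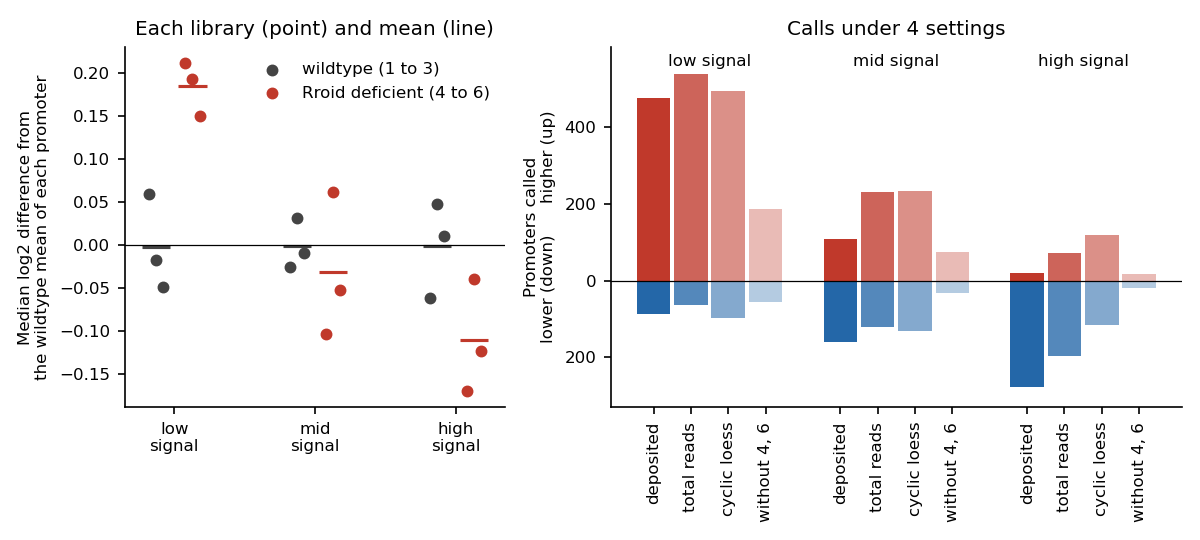
Left, median log2 difference of each library from the wildtype mean over the promoters of each set, with points for libraries and lines for group means. Right, promoters called higher (up) or lower (down) in each set under the deposited scaling, total-read scaling, cyclic loess and without libraries 4 and 6; the low-signal set has 476, 540, 494 and 187 rises in that order.

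Other peaks in the same ranges of wildtype signal gave a reference for these counts. Of 37034 other peaks in the range of the low-signal set, 15.8% rose and 10.1% fell, and their median was 0.05. Within that range they were weaker, with a median wildtype signal of 116.5 and a median SE of 0.21. The promoters of the set had 240.5 and 0.16, so the shares are not compared at equal signal. Of 6011 in the range of the mid-signal set, 9.17% rose and 23.8% fell, with a median of -0.09. Of 2628 in the range of the high-signal set, 2.47% rose and 21.5% fell, with a median of -0.12. At these unequal signals, promoters of the low-signal set had a larger share of rises than other peaks of that range. In each set they had a smaller share of falls. Cut into 10 equal parts instead, the lowest part had a median of 0.52, with 197 rises and 4 falls among 605, beside 0.19 for other peaks of that range. By library, the median log2 difference of the lowest part from the wildtype mean was 0.18, -0.09 and -0.07 in wildtype libraries 1 to 3. In libraries 4, 5 and 6 it was 0.70, 0.33 and 0.51, smallest in library 5, the deepest of its group. The part of depth in these rises was not tested. The highest of the 10 parts had a median of -0.14, with 2 rises (0.33%) and 118 falls (19.5%). The other peaks of its range also had -0.14, with 0.64% rises and 23.0% falls. The difference between promoters and other peaks has no test of its own here, since peaks of 1 library are not replicates.

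**Figure D3:**
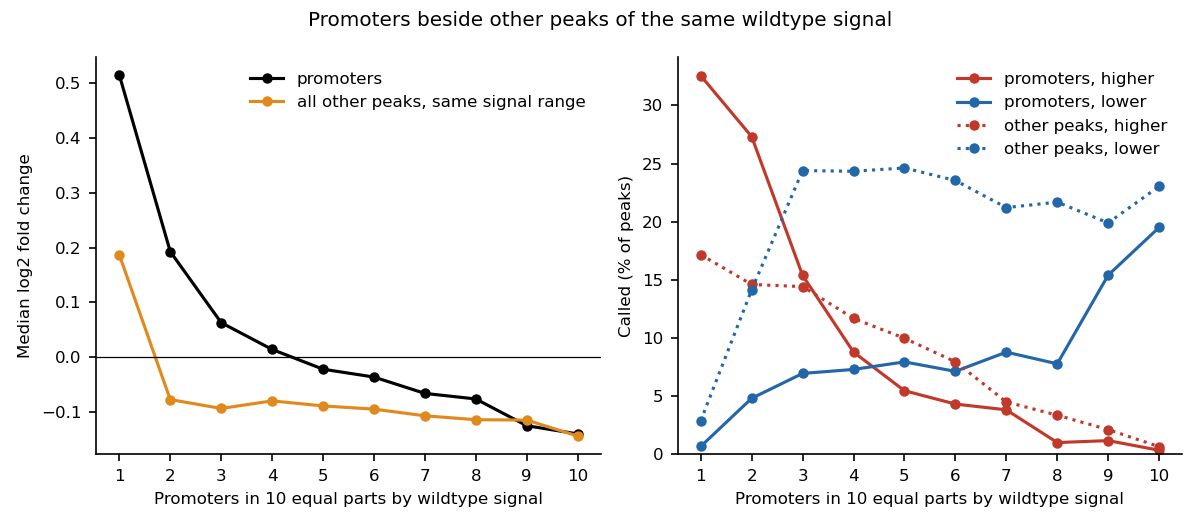
Promoters in 10 equal parts by wildtype signal (horizontal axis) beside all other peaks of the same signal range. Left, median log2 fold change, which goes from 0.52 in the lowest part to -0.14 in the highest for promoters; right, the percentage called higher or lower.

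In the low-signal set the largest fall that could be named was at Ccl27a, a chemokine of the skin. Its promoter (mm9 chr4:41717118-41717657) had 404, 311 and 269 units in the wildtype libraries and 66.3, 70.4 and 67.7 in the Rroid-deficient ones, a log2 fold change of -2.23 ± 0.19 (SE, n = 3 and 3, limma adjusted p 2.5e-07). Another Ccl27a promoter peak, in the high-signal set, had means of 4301 in wildtype and 2853 in Rroid-deficient libraries. Its change was -0.60 ± 0.09 (limma adjusted p 0.00011). Ccl27a has near-identical copies close by, so the assignment of its reads is uncertain. Kng2, a kininogen whose promoter has the first sequence above, had 130.0, 81.5 and 88.9 units in wildtype and 33.2, 12.4 and 48.4 in Rroid-deficient cells, a change of -1.81 ± 0.39. Khdc1a and Khdc1c, which encode KH-domain RNA-binding proteins, fell by 1.87 and 1.79 on the log2 scale.

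Another member of that cluster, Khdc1b, had the largest fall of all in the mid-signal set. Its promoter (mm9 chr1:21372089-21374741) had 730, 1011 and 1004 units in wildtype and 149.9, 151.4 and 140.2 in Rroid-deficient libraries, a change of -2.61 ± 0.15 (limma adjusted p 3.8e-09). The 3 promoters are neighbours on chromosome 1. Every wildtype library was above every Rroid-deficient one at each of them. The genes are similar enough that reads could be shared among them.

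The largest rise of the low-signal set was at Frem2, which encodes a protein of basement membranes. Its promoter (mm9 chr3:53460383-53462567) had 55.2, 57.1 and 30.3 units in wildtype and 326, 303 and 293 in Rroid-deficient cells, a change of 2.72 ± 0.23 (limma adjusted p 2.8e-07). Tctex1d1, which encodes a protein with a dynein light chain domain, had 81.9, 68.9 and 59.6 units against 513, 419 and 445, a change of 2.70 ± 0.18. Both promoters were nearly closed in wildtype, with no overlap between the groups.

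Cxcr5, a receptor that draws lymphocytes into B cell follicles, had 57.9, 42.0 and 39.1 units against 257, 294 and 232, a change of 2.48 ± 0.21. Cd3g, a subunit of the T cell receptor complex, had 55.2, 55.4 and 65.4 units against 314, 369 and 375, a change of 2.57 ± 0.18. Cd3g and Cd3d are neighbours read in opposite directions, so the peak belongs to Cd3g by distance alone.

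In the mid-signal set the named falls after Khdc1b were smaller. Fcrl6, an Fc receptor-like gene of cytotoxic lymphocytes, had 695, 871 and 783 units in wildtype against 308, 374 and 365, a change of -1.16 ± 0.13. Ccdc88a, which encodes the actin-binding protein girdin, changed by -0.99 and Tspan17, a tetraspanin, by -0.87, the latter with 1425 units in library 5 against 875 and 757 in libraries 4 and 6. Without libraries 4 and 6 the Tspan17 change was -0.33 (limma adjusted p 0.18).

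The largest rise of the mid-signal set was at Vipr1, a receptor for vasoactive intestinal peptide. Its promoter (mm9 chr9:121550947-121552548) had 1038, 1219 and 1045 units against 2305, 2774 and 2367, a change of 1.17 ± 0.10 (limma adjusted p 3.3e-07). Ccdc64 rose by 0.95, the class Ib histocompatibility gene H2-Q7 by 0.90 and Socs2, an inhibitor of cytokine signalling, by 0.85 on the log2 scale.

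In the high-signal set the changes were smaller still. The named fall of largest size was at Rarg, a retinoic acid receptor, with 3534, 3347 and 2778 units against 1492, 2157 and 1998, a change of -0.78 ± 0.12. Pxylp1, an enzyme of glycosaminoglycan synthesis, had 3689, 4283 and 4264 units against 2286, 2657 and 2406, a change of -0.73 ± 0.09. The groups did not overlap at either promoter.

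Id2 ranked next. Its promoter (mm9 chr12:25780258-25781499) had 4513, 5428 and 4990 units in wildtype and 2882, 3240 and 3350 in Rroid-deficient cells, a change of -0.66 ± 0.09 (limma adjusted p 3.5e-05). That is a 1.57-fold lower level, with every Rroid-deficient library below every wildtype one, and it kept its call in each of the 15 settings in which named promoters were refitted, with changes from -0.72 to -0.56.

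Rises in the high-signal set were rare. H2-Q8 had 3613, 3818 and 2920 units against 5958, 7380 and 6652, a change of 0.95 ± 0.10, and together with H2-Q7 it belongs to a family of near-identical genes whose reads could be shared. Nfatc2, a transcription factor of lymphocyte activation, had 2257, 2649 and 2422 units against 3395, 3957 and 3281, a change of 0.54 ± 0.09. Acbd4 rose by 0.49 and Adgre5, the adhesion receptor CD97, by 0.47. Traf3, an adaptor of tumour necrosis factor receptors whose sequence stands above, had 3141, 3308 and 2920 units against 3817, 4370 and 3773, a change of 0.35 ± 0.09.

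The 5 promoters with the highest wildtype signal all had lower means in Rroid-deficient cells, and 1 of them passed the test. Bhlhe40, a transcription factor of activated lymphocytes, had 18296, 19856 and 21214 units against 15089, 15761 and 15270, a change of -0.36 ± 0.07 (limma adjusted p 0.00086), a call lost without libraries 4 and 6 (limma adjusted p 0.053). Ube2d3, Sp1, Gsk3b and Spry2 had changes of -0.16, -0.20, -0.14 and -0.11 with limma adjusted p between 0.063 and 0.21. At the cuts between the sets, Nme6 and Armcx3 stood just below 756.9 units and Haus5 and Dnmt3a just above, with changes of 0.04, -0.42, -0.19 and 0.10. Cgrrf1 and Cast stood just below 2419.1 units and Smarcc1 and Rock2 just above, with changes of -0.10, -0.16, -0.09 and 0.16. Of these 8, Armcx3 alone passed the test, a call lost without wildtype library 3, library 4, or libraries 4 and 6 (limma adjusted p up to 0.12).

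**Figure D4:**
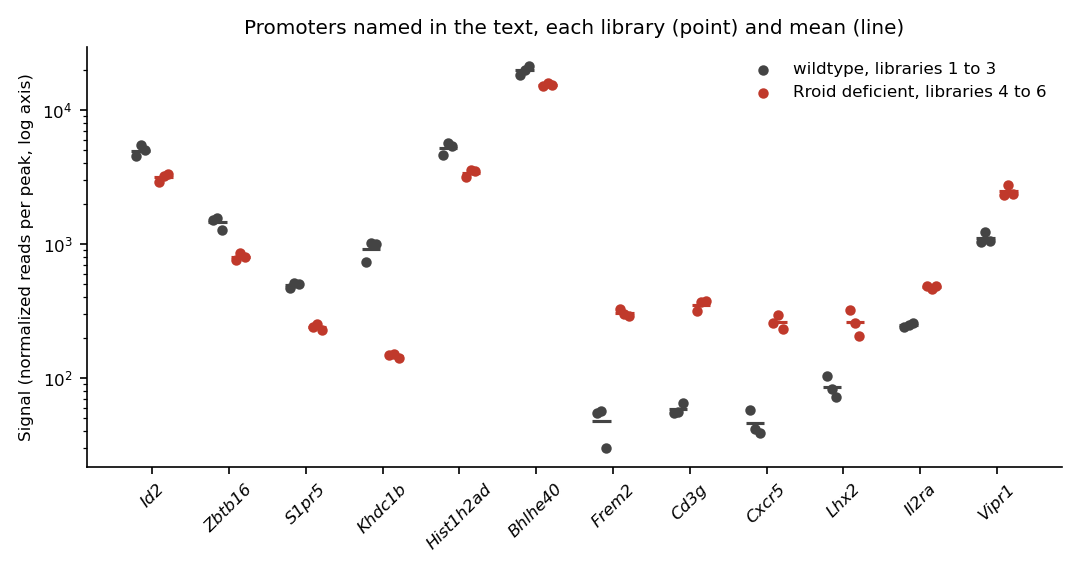
Signal of 12 promoters in each library (points; normalized reads per peak, log axis) with group means (lines). At each of the 12, the 3 wildtype libraries and the 3 Rroid-deficient libraries do not overlap; Khdc1b falls from a mean of 915.0 to 147.2 and Frem2 rises from 47.5 to 307.2.

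Genes were next grouped by role, and the counts stand beside 10.0% of all promoters that rose and 8.62% that fell. Only genes with a promoter peak enter: 9 of 25 listed effector and maturation genes, 8 of 22 immature and memory genes, 17 of 31 lineage factors (with 18 promoters), 14 of 30 recognition receptors and 11 of 29 cytokine receptors. For T cell, B cell, myeloid and erythroid markers they were 9 of 18, 3 of 14, 6 of 18 and 2 of 9. Among the promoters of effector and maturation genes of NK cells, 5 of 9 fell and 1 rose, with a median log2 fold change of -0.32. S1pr5, the receptor that lets mature NK cells leave bone marrow and lymph node, had 467, 514 and 503 units against 239, 252 and 229, a change of -1.04 ± 0.13. Prdm1, which encodes the maturation factor Blimp-1, had 3070, 3255 and 3182 against 2242, 2554 and 2394, a change of -0.40 ± 0.08. Its call was lost without libraries 4 and 6 (limma adjusted p 0.13). Chosen after their values were seen, the other falls were at Cx3cr1, a chemokine receptor of mature NK cells (-0.93), and at Gzma and Prf1, which encode granzyme A and perforin (-0.37 and -0.30).

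The rise in that list was at Gzmm, granzyme M, with 566, 749 and 698 units against 1068, 1404 and 1081, a change of 0.82 ± 0.13. Gzmk, Tnfsf10 and Nkg7 had values of -0.31, -0.32 and -0.17 that missed the threshold. With library 6 left out, 3 of the 9 fell, and without libraries 4 and 6, 1 did, at a median of -0.30.

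Among genes of immature NK cells and of memory-like lymphocytes, 3 of 8 promoters rose and 1 fell, with a median of 0.23. Cd27, which marks the earlier stages of NK maturation, had 1122, 1197 and 1109 units against 1945, 2070 and 1867, a change of 0.78 ± 0.09. Tcf7, which encodes TCF-1, had 1411, 1795 and 1366 against 2105, 2617 and 2152, a change of 0.59 ± 0.11. The other rise was at Cxcr5, described above. Lef1, a relative of Tcf7, changed by -0.23 (limma adjusted p 0.047), a call lost when any 1 library was left out, without libraries 4 and 6, and under all 3 other scalings (total reads, DESeq2 size factors, cyclic loess). It was named after its value was seen. The 3 rises were called without any 1 library.

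Of 18 promoters of lineage transcription factors, none rose and 5 fell, with a median of -0.08. Zbtb16, which encodes PLZF, had 1512, 1558 and 1281 units against 760, 853 and 800, a change of -0.85 ± 0.11, and Id2 was the other large fall. Runx1 changed by -0.34, Tcf4 by -0.28 and Tcf3, which like Tcf4 encodes an E protein that Id2 binds, by -0.26. The Tcf4 call was lost under cyclic loess and without wildtype library 3, library 6, or libraries 4 and 6 (limma adjusted p up to 0.18). Runx1 and Tcf3 were named after their values were seen. The count of falls was 4 with total-read scaling, 3 under cyclic loess, 3 without wildtype library 2, 3 without library 4 and 2 without library 6.

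Receptors by which NK cells recognise targets had 5 falls and no rise among 14 promoters, with a median of -0.20. Klra1, an inhibitory Ly49 receptor, had 705, 602 and 566 units against 329, 403 and 397, a change of -0.73 ± 0.13. Klrb1b changed by -0.56 and Cd96, a receptor of nectin-like ligands, by -0.43. The Ly49 and Klrb1 genes have near-identical copies. Falls numbered 4 with total-read scaling, 3 under cyclic loess, 7 without library 5, 2 without library 6, and 3 without wildtype library 1, wildtype library 2 or library 4. Without libraries 4 and 6 the calls at Klrb1b and Cd96 were lost (limma adjusted p 0.068 and 0.092). The call at Cd96 was also lost without wildtype library 3 (-0.33, limma adjusted p 0.064) and without library 6 (-0.41, limma adjusted p 0.057).

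Of 11 cytokine and chemokine receptor promoters, 2 rose and 1 fell (18.2% and 9.09%). These shares stand beside 10.0% and 8.62% of all promoters and are near those of all peaks (13.8% and 12.1%). Il2ra, the inducible subunit of the interleukin-2 receptor, had 240, 250 and 259 units against 483, 465 and 488, a change of 0.94 ± 0.13. Ifngr2, a subunit of the interferon gamma receptor, changed by 0.52 and Il18rap, a subunit of the interleukin-18 receptor, by -0.29. The Il18rap call was lost in 8 of the 15 refits, namely with total-read scaling, DESeq2 size factors and cyclic loess, without wildtype library 1, wildtype library 2, library 4 or library 6, and without libraries 4 and 6 (limma adjusted p 0.051 to 0.47).

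Markers of cells outside the sort gate were read beside these changes. Among 9 promoters of T cell genes, 3 rose and none fell. Besides Cd3g these were Ctla4, with 62.3, 42.0 and 52.7 units against 211, 158 and 216, and Cd5, with 118.4, 43.7 and 31.3 against 118.0, 131.4 and 141.5. The groups overlapped at Cd5, whose call was lost without wildtype library 2 or 3 or library 6 (limma adjusted p 0.051, 0.079 and 0.054) and without libraries 4 and 6. Of the 7 defining T cell markers, Cd3e, Cd3d, Cd4 and Cd8a had no peak assigned to them within 1000 bp of the start site. Each peak counts for its assigned gene only, so the Cd3g peak was not counted for Cd3d. Cd28 changed by -0.14 and was not called. The summed signal at the 3 with an assigned peak was 2367 to 2485 in wildtype and 2493 to 2649 in Rroid-deficient libraries. Most of that sum was Cd28, with means of 2315 in wildtype and 2105 in Rroid-deficient libraries. Cd3g had means of 58.7 and 352.8, and Cd5 of 64.5 and 130.3.

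Among 3 promoters of B cell genes, Pou2af1, a coactivator of octamer-binding factors, rose from 188, 159 and 119 units to 619, 663 and 534. Of 6 defining B cell markers, only Cd79b had a peak assigned to it near its start. That peak had 45.4 to 63.5 units in wildtype and 60.0 to 90.2 in Rroid-deficient libraries. None of 6 myeloid promoters was called, and of 2 erythroid ones Tal1 changed by -0.32, a call lost without wildtype library 2 or 3, library 4 or 5, or libraries 4 and 6. Of 6 defining myeloid markers 3 had a peak assigned to them near their start, and 1 fell. That was Itgam, whose intron peak went from a mean of 519.2 to 344.8 (-0.59, limma adjusted p 0.0086). Of the 9 defining NK markers 8 had a peak assigned to them near their start, none rose and 5 fell. Only 3 of those 8 peaks were promoters. All 8 had wildtype means in the range of the mid-signal or high-signal set. There, in that order, 23.8% and 21.5% of other peaks fell, and 7.89% and 13.7% of promoters. No refit of this count is given here. The summed signal of the 8 NK peaks was 22863 to 26200 in wildtype and 17909 to 21756 in Rroid-deficient libraries. In bulk samples, fewer cells of a type and less open chromatin per cell cannot be told apart, and the part of other cells in the rises at Cd3g, Ctla4, Cd5 and Pou2af1 was not tested.

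Histone gene promoters fell as a group: 22 of 30 fell and none rose, with a median of -0.41. Replication-dependent histone genes supply the proteins that package new DNA, and most of them lie in a cluster on chromosome 13. In that cluster 21 of 23 promoters fell, with a median of -0.44, while 1 of 7 elsewhere did, with a median of -0.21. Hist1h2ad had 4581, 5653 and 5421 units against 3142, 3561 and 3483, a change of -0.62 ± 0.09. Hist1h2be had 7559, 9604 and 9098 against 5448, 6294 and 5911, a change of -0.57 ± 0.09, and Hist1h2bn changed by -0.55.

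The 2 promoters of the cluster that were not called, named after their values were seen, were Hist1h2af (-0.14) and Hist1h4f (-0.08). The falls in the cluster numbered 21 with total-read scaling and under cyclic loess, 17 to 21 without any 1 library, and 7 without libraries 4 and 6, where the median was -0.37. Histone genes are near-identical copies, and short reads may be shared among them. Neighbouring genes of the cluster are not independent replicates.

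The other genes of growth and housekeeping are given beside the 10.0% and 8.62% of all promoters that rose and fell. Of 15 cell cycle promoters, Ccne2 (0.40) and E2f1 (0.33) rose and Mcm5 (-0.25) fell. The E2f1 call was lost without library 6, and the Mcm5 call with total-read scaling, under cyclic loess, without wildtype library 2 or 3 or library 5 or 6, and without libraries 4 and 6. Of 52 promoters whose symbols match ribosomal proteins, 8 fell (15.4%) and 1 rose, with a median of -0.13. The rise was at Rps6kl1, a kinase-like gene that shares the symbol's start but encodes no ribosomal protein. Rpl9 had the smallest p of the falls, with 2664, 3192 and 3428 units against 2028, 2203 and 2100, a change of -0.55 ± 0.10. Falls numbered 6 with total-read scaling and under cyclic loess, 15 without library 5, 5 without wildtype library 3, 3 without library 4, 2 without wildtype library 2 and 2 without library 6.

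Among promoters of the mitochondrial ribosome 1 of 40 rose and 1 fell. Of 51 for the respiratory chain 2 rose and 1 fell, and 1 of 21 for the proteasome and 1 of 24 for splicing fell. Translation initiation factors had 1 rise and 4 falls (15.4%) among 26. Larger shares than over all promoters fell among chaperones, at 3 of 12 (25%), general transcription factors and polymerase subunits, at 3 of 16 (18.8%), and reference genes, at 2 of 7 (28.6%). In that order, 10, 7 and 5 of these promoters lay in the high-signal set, where 13.7% of all promoters fell. None of these last 3 lists had a fall left without wildtype library 2, library 4 or library 6. Zinc finger genes of the Zfp series had 5 rises and 8 falls among 167 (2.99% and 4.79%). Solute carriers had 15 and 8 among 103 (14.6% and 7.77%), and kinesins and dyneins 4 and 2 among 22 (18.2% and 9.09%). These shares stand beside 10.0% and 8.62% of all promoters and are near those of all peaks (13.8% and 12.1%). Leaving out 1 library at a time gave 0 to 5 falls for the mitochondrial ribosome, 0 to 7 for the proteasome, 0 to 6 for the respiratory chain, 0 to 3 for splicing and 2 to 19 for the Zfp genes.

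Homeobox, Pax and Sox genes, which encode factors of body patterning and organ development, had 8 rises and 1 fall among 17 promoters, with a median of 0.44. Lhx2 had 104.2, 83.2 and 72.3 units against 321, 258 and 204, a change of 1.57 ± 0.21, and Dlx4 had 76.6, 32.8 and 47.9 against 137, 109 and 117, a change of 1.27 ± 0.28. Without libraries 4 and 6 the Dlx4 call was lost (limma adjusted p 0.061). Both were low in wildtype, and 14 of the 17 lay in the low-signal set.

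Chosen after their values were seen, Hoxa5 had 41.9, 54.6 and 40.0 units against 70.3, 108.5 and 85.8, a change of 0.93 ± 0.26, and the fall was at Hoxc9 (-0.43). Rises numbered 8 with total-read scaling and under cyclic loess, 4 without library 4 and 3 without libraries 4 and 6, where the median was 0.16. The low-signal set as a whole had 23.6% of its promoters called higher.

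**Figure D5:**
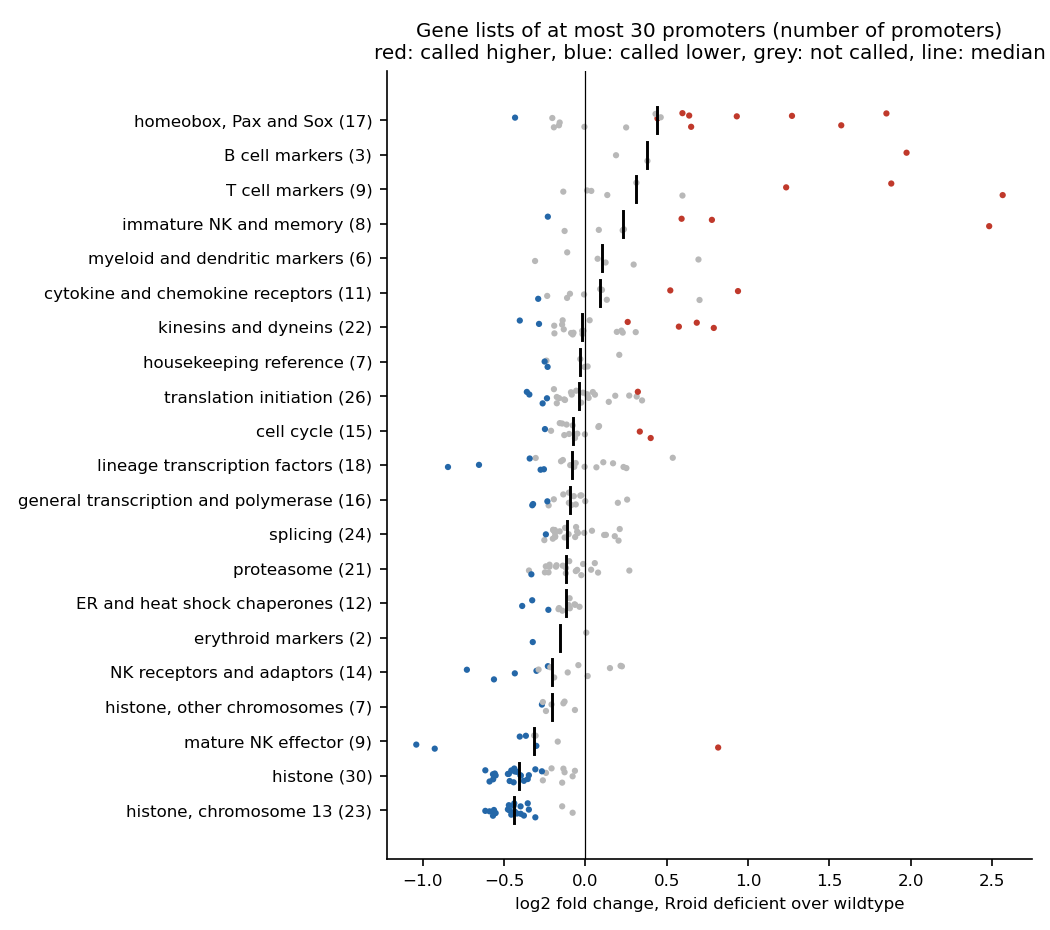
Log2 fold change of each promoter in the gene lists of at most 30 promoters (points; red called higher, blue called lower, grey not called), with the list median as a black line. Histone promoters lie furthest to the left as a group, with 22 of 30 called lower, and homeobox, Pax and Sox promoters have 8 of 17 called higher.

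Other peaks assigned to the same gene were read for the 3815 promoters that had any. Of 394 promoters that rose, 45.7% had at least 1 other peak that rose and 7.36% had 1 that fell. Of 376 promoters that fell, 19.4% had another peak that rose and 44.7% one that fell. For the 3045 promoters that were not called the shares were 26.2% and 22.3%. The same order held in each set: among promoters that rose, 45.6%, 45.7% and 46.7% of the low-signal, mid-signal and high-signal set had another peak that rose. Across promoters, the change at the promoter and the median change of the gene's other peaks had a Pearson r of 0.37 and a Spearman rho of 0.34. These points share libraries and a gene is assigned by distance, so the values are a description.

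In the 71 genes with several promoter peaks, 3 had both peaks higher, 2 had both lower, 18 had 1 higher only, 10 had 1 lower only and none had peaks that changed in opposite directions. Named after their values were seen, the 2 promoters of Cacnb3, a calcium channel subunit, rose by 1.02 and 0.93 on the log2 scale, and the 2 of Adcy7, an adenylyl cyclase, changed by -0.36 and -0.32. Ccl27a, described above, was the other gene with both peaks lower.

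By chromosome, the share of promoters that fell was largest on chromosomes 13 and X, which are given here for that rank. It was 11.2% on chromosome 6, the next, and 3.04% on chromosome 19, the lowest. Promoters on chromosome 13 had 45 falls among 236, or 19.1%, and 24 among 213, or 11.3%, without the histone genes. Promoters on the X chromosome had 10 rises and 30 falls among 191, or 5.24% and 15.7%, with a median of -0.12, beside 7.13% and 9.54% for other peaks there. In the high-signal set, 15 of the 33 X-linked promoters fell (45.5%), beside 13.7% of all promoters of that set. No refit of the counts by chromosome is given here, and the falls of the whole high-signal set went from 276 to 65 without library 6. Eif2s3x, an X-linked subunit of translation initiation factor 2, had 3467, 3382 and 3776 units against 2607, 2805 and 2951, a change of -0.35 ± 0.08, a call lost without libraries 4 and 6 (limma adjusted p 0.097). The labels used here give no sex of the animals.

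The RefSeq sequence table held the 300 bases around the start, 250 before and 50 after, for the genes of 4893 promoters, or 80.9%. Where a gene had several entries, shares and values are means over them. These promoters had a median CpG observed-to-expected ratio of 0.77 and a GC content of 61.3%, beside 0.39 and 52.8% for all genes of the table. A GC box was present in 66.3% of them and in 35.6% of all genes, the ETS motif CGGAAG in 33.3% and 17.1%, and TATAAA in 5.76% and 14.2%. By wildtype signal, the mid-signal and high-signal sets had median CpG ratios of 0.78 and 0.84. The low-signal set had 77.2% of its promoters in the table, under the 80% set as a minimum, so a check of its sequences is void.

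Between promoters that fell and those that were not called, 80.6% and 81.1% of which were in the table, the CpG ratio was 0.76 and 0.77. TATAAA was present in 11.4% and 5.21%, CGGAAG in 26.7% and 35.5%, and the cyclic AMP response element TGACGTCA in 6.27% and 3.37%. The E box CAGGTG was present in 12.4% and 16.1%, and the E box CAGCTG in 14.5% and 14.2%. Without the histone genes, of which 57.7% held TATAAA and 80.8% held CCAAT, the share with TATAAA was 8.90% of the promoters that fell. The promoters that rose had 79.7% in the table, just under the minimum, so their shares are not given. These shares are a description of letters in the windows, on both strands, and their part in the changes was not tested.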

How the data were processed

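ATAC-seq of NK cells was measured in 3 wildtype and 3 Rroid-deficient libraries. The build was mm9 and the tools named were MACS2 2.1.0, BWA, HOMER, DiffBind, Trimmomatic 0.32, bcl2fastq 2.16.0 and R 3.1.1, per the submitters' processing notes. For their settings, the treatment of duplicate reads and any offset for the transposase's cut, the sources used here give nothing. For each consensus peak and library, the authors deposited 1 normalized signal value, with HOMER's annotation per the file headers. Coordinates are printed as deposited.

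Multiplied by a factor for its library, every signal value gave a whole number of reads (100% of values in each library, tolerance 0.01 reads). In wildtype library 2 the lowest value stood for 2 reads, so the worth of 1 read there rests on the spacing of the values. Count tests on these reads (edgeR 4.0.16, DESeq2 1.42.0) were therefore used as alternatives only.

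The comparison was a limma 3.58.1 fit with an intensity trend on log2(signal + 1) over all 51775 peaks, with Benjamini-Hochberg adjustment over all of them and calls at an adjusted p under 0.05. Fold changes are on that log2 scale, which understates changes of low peaks. No peak was filtered out. Precision is given as the SE, and depth as reads in peaks. Columns were mapped to genotypes by name, and to no single labelled replicate.

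The promoters, gene lists and comparisons were chosen with earlier results of these data known. Named were, in each of the 3 sets, the 4 largest called rises and falls without overlap between groups, leaving out provisional symbols, up to 3 called promoters per list by p, Id2, the 5 highest promoters and 2 on each side of each cut. The values of 1 promoter this rule names are not reported here. Alternatives were other scalings, pseudocounts, filters, thresholds, promoter definitions and cuts, other tools, and libraries left out.

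RefSeq sequences (GRCm38.p6) were matched by gene ID. Matching genes with 1 entry only reached too few promoters, so means over all entries were used, a choice made after the data had been seen. The table used here has no entry on chromosome 18. A group with under 80% matched was called void.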

Additional observations from a re-analysis of the deposited data

How the results depend on the processing

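DESeq2 size factors, pseudocounts of 0.5 and 5, a minimum of 50 in 3 libraries (94 promoters removed), edgeR, DESeq2 and 1 peak per gene moved no count by 1.5 times and no median beyond the spread between libraries. Scaled to total reads, medians were 0.025 over all promoters and 0.24 in the low-signal set, and rises numbered 232 in the mid-signal and 72 in the high-signal set. Under cyclic loess, falls numbered 343 over all promoters and 116 in the high-signal set, rises 233 in the mid-signal and 119 in the high-signal set, and medians were 0.029 over all and -0.018 in the high-signal set. Without libraries 4 and 6, rises numbered 281 over all and 187 in the low-signal set, falls 107 over all and 56, 31 and 20 by set, and medians were 0.039 over all, 0.061 in the mid-signal and -0.040 in the high-signal set. The causes were not tested.

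At an adjusted p under 0.01, rises and falls were 292 and 153 over all and 234 and 35, 49 and 58, and 9 and 60 by set. At 1.5-fold or more they were 353 and 69 over all, with 41 falls in the low-signal set, 12 and 21 in the mid-signal and 1 and 7 in the high-signal set. For peaks within 100 bp of the start site, which are fewer, they were 346 and 283 over all and 277 and 50, 60 and 93, and 9 and 140. Cut by the mean of all 6 libraries, the high-signal set had 34 rises. Cut by wildtype library 2, left out of the contrast, the low-signal set had 313 and 56, the mid-signal set 85 falls and the high-signal set 92 falls. By wildtype library 3 the counts were 297 and 56, 64 and 100, and 13 and 135.

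Leaving out 1 library at a time gave 374 to 655 rises, 180 to 749 falls and medians of -0.07 to -0.01 over all promoters. The low-signal set had 296 to 530, 51 to 89 and 0.16 to 0.21, the mid-signal set 61 to 108, 64 to 217 and -0.08 to 0.00, and the high-signal set 11 to 25, 65 to 453 and -0.15 to -0.08.

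Of 81 named promoters with a call, 45 kept it in all 15 refits and none changed direction. Among those without a call, Spry2 was 0.026 under cyclic loess and Smarcc1 0.085 without libraries 4 and 6. With 1 library left out, Nme6 lay between -0.016 (without wildtype library 3) and 0.088 (without wildtype library 1). No paired analysis was possible because the column names of the 2 groups share no replicate number. The median SE was 0.16, 0.10 and 0.08 in the low-signal, mid-signal and high-signal set. Depth as a limit was not compared between the sets.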
